A study of Arabidopsis thaliana with 20 samples.

Results

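Genes for proteins of the large, 60S, subunit of the cytosolic ribosome were followed along the growing inflorescence stem of Arabidopsis thaliana. The members were chosen by locus from a list of 60 genes for cytosolic 60S proteins, and a locus became a member when the array carried a measured probe annotated to that gene alone. This held for 33 of the 60 listed loci, from 23 different proteins, against 7871 loci with such a probe on the whole array. The other listed loci were not analysed here. All 33 members passed the filter on missing values, and each was read by 1 measured probe. RPL32B had 48 further probes annotated to it, all on blank spots. The platform and RefSeq tables give these genes by locus number only, so protein and copy names follow the established Arabidopsis ribosomal protein nomenclature as background.

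The study compared cDNA from stem sections on 20 spotted arrays with 2 colours. The sections were 0-3, 3-5, 5-7 and 7-9 cm from the tip of stems about 10 cm long, and 2-4 cm from the tip of stems about 5 cm long. Each section had 4 arrays, with the section in Cy5 on 2 of them and in Cy3 on the other 2. Every array carried the 0-2 cm section of the 5 cm stems as a common reference, so values are log2 ratios of a section over that reference. All plants were the accession Ler, grown in 8 h days and then moved to 16 h days. The 10 cm stems were cut 14 days and the 5 cm stems 12 days after the move, without flowers, siliques, cauline leaves and side branches. Each section is therefore a mix of all stem tissues, and fewer cells of a type and less RNA per cell cannot be told apart. Whether the 4 arrays of a section stand for different plants is not stated in the labels. The p-values here therefore reflect array-to-array spread alone, and that spread may be technical.

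The ribosome is built from a large and a small subunit, and the large one holds the centre that joins amino acids into a chain and the tunnel through which the chain leaves. Most of its proteins are present once in each subunit, and in Arabidopsis nearly every one of them is encoded by a small family of very similar genes, called paralogs. Tissue that makes new cells and cytoplasm, such as the young top of a stem, is known for high levels of ribosomal protein transcripts.

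Several arrays need naming before the results. Over the 33 members, the lowest correlation between arrays of one section was -0.457 at 0-3 cm, 0.083 at 2-4 cm, 0.849 at 3-5 cm, 0.779 at 5-7 cm and 0.558 at 7-9 cm. On 2-4 cm replicate 4 the median of the members was -0.04, against -1.01 to -0.72 on the other arrays of its section. Scanner settings differed between some sections: all 2-4 cm arrays shared one setting and all 3-5 cm arrays another, so for these the setting and the section cannot be told apart. The source name of 3-5 cm replicate 1 gives a 5 cm stem, where its title was followed. On 3 arrays, 5-7 cm replicate 4 and 7-9 cm replicates 2 and 4, the labels disagree on the dye.

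In the sections from 3 cm down nearly all 60S genes were low relative to the tip of short stems. In the 3-5 cm section 31 of 33 members were lower than the reference, 1 was higher and 1 did not pass, with a median log2 ratio of -1.96 (limma, adjusted p under 0.05). Of all probes tested, 20.2% were lower and 19.9% higher in that section, with a median of -0.00168. In the 5-7 cm section 31 members were lower and 1 was higher, with a median of -1.79, against 20.2% of all probes lower and 19.7% higher. In the 7-9 cm section 30 were lower and 1 was higher, with a median of -1.59, against 21.7% lower and 21.7% higher. A log2 ratio of -1 is a 2-fold difference. By that measure 30 members were at least 2-fold below the reference at 3-5 cm, 29 at 5-7 cm and 27 at 7-9 cm, and 15 were at least 4-fold below it at 3-5 cm. The 1 member that rose was RPL27B in all 3 sections, and RPL7A passed in none of them.

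**Figure D1:**
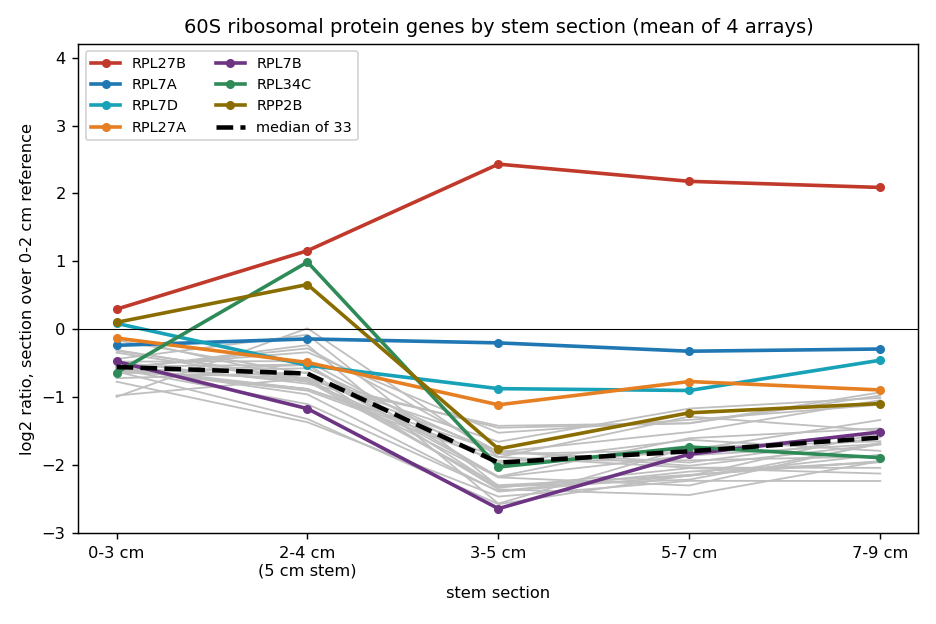
Mean log2 ratio over the 0-2 cm reference (vertical axis) of each of the 33 members in the 5 sections (horizontal axis), with 7 members coloured, the others grey and the median dashed. The median lies at -0.55 at 0-3 cm and -1.96 at 3-5 cm, and RPL27B alone lies above 0 in all sections from 3 cm down.

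Most members were below 0 on every array of these sections. The median of the members was -2.12, -1.95, -2.06 and -1.99 on the 3-5 cm arrays, -1.96, -1.70, -1.80 and -1.80 on the 5-7 cm arrays and -1.82, -1.36, -1.70 and -1.61 on the 7-9 cm arrays. None of these 12 medians was above -1.36. Between 31 and 32 of the 33 members were below 0 on each of the 12 arrays, and between 0.938% and 5.35% of all probes on an array lay below the member median. At 3-5 cm 31 members were below 0 on all 4 arrays and 1 was above 0 on all 4, against 26.7% and 26.2% of all probes. The counts were 30 and 1 at 5-7 cm (22.7% and 22.3% of probes) and 31 and 1 at 7-9 cm (23.8% and 24% of probes).

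**Figure D2:**
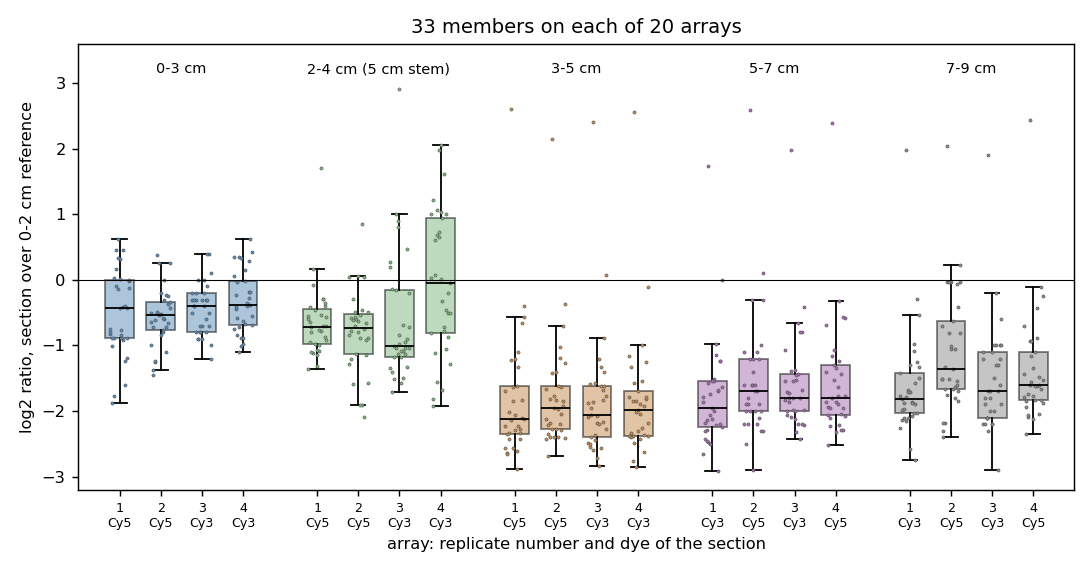
Log2 ratio over the reference (vertical axis) of the 33 members on each of the 20 arrays (horizontal axis, replicate number and dye of the section). Points are members, boxes span the quartiles with the median as a line, and the 12 arrays of the lower 10 cm stem sections have medians between -2.12 and -1.36.

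Of the 3 steps down the 10 cm stems, the one with members called was that between the 0-3 and 3-5 cm sections. Set directly against the 0-3 cm section, 29 of 33 members were lower at 3-5 cm and 1 was higher (median difference -1.39), against 8.35% of all probes lower and 8.67% higher. The arrays of both sections did not overlap for 29 members in the lower direction and 1 in the higher, against 10.3% and 10.6% of probes. RPL34C, RPL19B and RPL7A did not pass, with differences of -1.39 ± 0.55, -0.88 ± 0.32 and 0.04 ± 0.23 (SE, n = 4 arrays a section). The count depended on the scale of the arrays: after centring and scaling every array to the same SD, 10 were lower and 1 higher, and the median difference was -0.97. No share of all probes was taken after scaling.

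Below 3 cm no member was called between neighbouring sections. From 3-5 to 5-7 cm, 0 of 33 members passed in either direction (limma, 3 at an unadjusted p under 0.05), against 3.47% of all probes lower and 2.43% higher, and the median difference was 0.20. From 5-7 to 7-9 cm, 0 of 33 passed again (1 at an unadjusted p under 0.05), against 0.00389% lower and 0% higher, with a median difference of 0.20, or 0.05 without 7-9 cm replicate 2. By value alone, 1 of the 33 members had its lowest mean at 0-3 cm, 25 at 3-5 cm, 6 at 5-7 cm and 1 at 7-9 cm. Leaving out RPL27B, 30 of 32 had a higher mean at 7-9 than at 3-5 cm, a comparison that was not tested directly. The arrays of neighbouring sections did not overlap for RPL7B, higher at 5-7 than at 3-5 cm, and for RPL13aA and RPL28A, higher at 7-9 than at 5-7 cm, against 6.11% and 0.968% of probes in that direction. No member was lower without overlap in these comparisons, against 6.89% and 0.933% of probes.

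Among the proteins of the moving arms of the subunit, RPL10aC (AT5G22440) forms the L1 stalk, which moves with the spent tRNA as it leaves. Its log2 ratios were -2.65, -2.68, -2.55 and -2.40 at 3-5 cm, -2.31, -2.5, -1.71 and -2.06 at 5-7 cm and -1.82, -2.31, -1.80 and -1.85 at 7-9 cm. All 12 values were far below 0, and the difference from the reference at 3-5 cm was -2.57 ± 0.17 (SE, n = 4; adjusted p = 2.60e-10). RPL12C (AT5G60670) is a copy of uL11, at the base of the stalk that recruits translation factors. It had -2.56, -2.40, -2.44 and -2.85 at 3-5 cm, -2.5, -1.60, -1.55 and -1.29 at 5-7 cm and -2.10, -1.51, -1.80 and -1.16 at 7-9 cm. These arrays were all low, with a difference of -2.56 ± 0.31 at 3-5 cm (adjusted p = 8.32e-07). RPP2B (AT2G27710), an acidic P2 protein of the same stalk, was lower by value at 3-5 cm than at 7-9 cm, with differences of -1.76 ± 0.31, -1.23 ± 0.31 and -1.09 ± 0.31 at 3-5, 5-7 and 7-9 cm. Its call at 7-9 cm was lost in 4 alternatives, in which the difference was still -0.92 to -0.87. These were without replicate 1 (adjusted p = 0.0546) or 3 (0.0527), after centring and scaling (0.0688) and with the scanner setting as a block (0.0753).

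Next come 5 members whose proteins lie along the tunnel or at its opening, described together for their place alone. RPL17A (AT1G27400) and RPL17B (AT1G67430) are copies of uL22, which lines the tunnel. RPL17A had -2.43, -2.40, -1.95 and -2.77 at 3-5 cm, -2.46, -2.20, -1.72 and -2.23 at 5-7 cm and -1.88, -1.33, -2.10 and -2.06 at 7-9 cm, with no array above -1.33 and a difference of -2.39 ± 0.17 at 3-5 cm (adjusted p = 4.95e-10). At the opening of the tunnel, RPL19B (AT3G16780), RPL26A (AT3G49910) and RPL31A (AT2G19740) differed from the reference at 3-5 cm by -1.88 ± 0.22, -1.65 ± 0.22 and -1.93 ± 0.21. RPL31A stayed within a narrow range, with means of -1.93 at 3-5 cm, -1.93 at 5-7 cm and -1.87 at 7-9 cm, while RPL26A had means of -1.65, -1.16 and -1.01. RPL31A and RPL28A (AT2G19730) lie next to each other on chromosome 2 with 0 protein-coding genes between them, and RPL28A had means of -2.29, -2.16 and -1.52 in the same sections.

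The lowest member at 3-5 cm was RPL7B (AT2G01250), a copy of uL30. It had -2.89, -2.40, -2.83 and -2.42 at 3-5 cm, -2.0, -2.0, -1.45 and -1.90 at 5-7 cm and -2.07, -0.63, -1.50 and -1.84 at 7-9 cm. The 3-5 cm arrays lay below all 5-7 cm arrays, and the difference from the reference at 3-5 cm was -2.64 ± 0.22 (adjusted p = 5.03e-09). RPL35aB (AT1G41880), a copy of eL33, had -2.65, -2.34, -2.5 and -2.34 at 3-5 cm, -2.43, -1.90, -2.06 and -2.52 at 5-7 cm and -1.98, -2.40, -2.20 and -2.34 at 7-9 cm. It was low on all of them and differed from the reference by -2.46 ± 0.18 at 3-5 cm and -2.23 ± 0.18 at 7-9 cm (adjusted p = 6.53e-10 and 1.94e-09). RPL37aB (AT3G10950), a copy of eL43, had the lowest mean of all members at 5-7 cm, -2.44 ± 0.35 (SD, n = 4). At 7-9 cm its arrays ran from -2.90 to -0.06.

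RPL27B (AT3G22230), a copy of eL27, went against the rest on its 1 measured probe, whose sequence was not checked. Its log2 ratios were 0.46, 0.38, 0.00 and 0.36 at 0-3 cm, and 1.71, 0.85, 1.01 and 1.07 at 2-4 cm. They were 2.61, 2.16, 2.41 and 2.56 at 3-5 cm, 1.74, 2.60, 1.98 and 2.39 at 5-7 cm and 1.98, 2.05, 1.90 and 2.43 at 7-9 cm. Every array of the 2-4 cm section and of the lower sections was above 0, and the 0-3 cm arrays lay at or slightly above it. The gene did not pass at 0-3 cm (0.30 ± 0.14, adjusted p = 0.301). It rose at 2-4 cm (1.16 ± 0.14, adjusted p = 1.585e-05), at 3-5 cm (2.43 ± 0.14, adjusted p = 6.86e-11), at 5-7 cm (2.18 ± 0.14) and at 7-9 cm (2.09 ± 0.14) against the reference. At 3-5 cm it was above the 0-3 cm section by 2.13 ± 0.20.

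The other measured copy of the same protein, RPL27A (AT2G32220), fell below 3 cm. It had -1.09, -1.02, -1.33 and -0.99 at 3-5 cm, -0.99, -1.10, -0.67 and -0.32 at 5-7 cm and -1.08, -1.06, -1.0 and -0.43 at 7-9 cm, all below 0 and all below every RPL27B array. The differences from the reference were -1.11 ± 0.15, -0.77 ± 0.15 and -0.89 ± 0.15 (adjusted p = 5.83e-06, 0.000406 and 7.33e-05), among the smaller declines of the members. Within the scanner setting of 5-7 cm replicates 3 and 4, its 5-7 cm value was -0.49 and did not pass (adjusted p = 0.107). The log2 ratio of RPL27A minus that of RPL27B averaged -3.16 ± 0.42 (SD, n = 12 arrays of the 3-5, 5-7 and 7-9 cm sections). It was negative on 12 of 12 arrays (exact sign-flip test, adjusted p = 0.00137). The third listed copy of this protein had no probe of its own here.

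RPL7A (AT1G80750) was the member that passed in no section. It had -0.39, -0.36, 0.07 and -0.11 at 3-5 cm, 0.00, -0.30, -0.41 and -0.58 at 5-7 cm and -0.53, 0.22, -0.60 and -0.25 at 7-9 cm, with 3 of 4 arrays below 0 and 1 at or above it in each of these sections. The differences from the reference were -0.23 ± 0.16 at 0-3 cm and -0.14 ± 0.16 at 2-4 cm. At 3-5, 5-7 and 7-9 cm they were -0.20 ± 0.16, -0.32 ± 0.16 and -0.29 ± 0.16 (limma, adjusted p = 0.355, 0.119 and 0.156). Without 7-9 cm replicate 2 the value at 7-9 cm was -0.47 and passed (adjusted p = 0.0391).

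Paralogs of 7 proteins could be compared within arrays, as 14 pairs. A pair's difference, the log2 ratio of the first copy minus that of the second, was averaged over the 12 arrays of the 3-5, 5-7 and 7-9 cm sections and tested with an exact two-sided sign-flip permutation test, adjusted over the 14 pairs. The smallest p that the test can give is 0.000488. The test takes the 12 arrays as independent, though they come from 3 sections and share the reference. Its p-values therefore leave out the reference's own spread. By this test 10 pairs differed, and 5 of them had the same sign on all 12 arrays. The probes' sequences were not used here, and how far a probe also takes up transcripts of other copies was not tested.

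**Figure D3:**
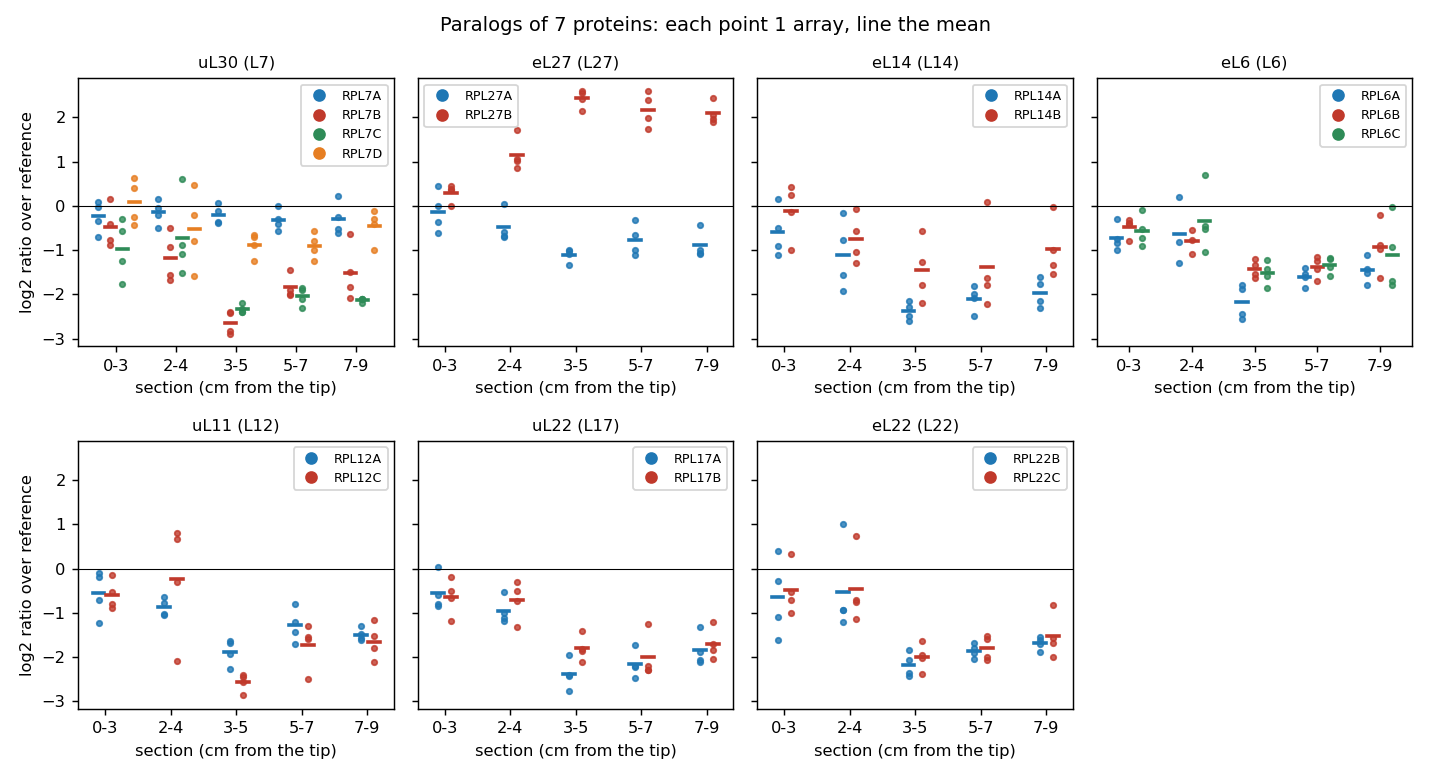
Log2 ratio over the reference (vertical axis) of the copies of each of the 7 proteins with more than 1 member, by section (horizontal axis), with a point for each array and a line at the mean. RPL27A and RPL27B lie on opposite sides of 0 from 3 cm down, and of the L7 copies RPL7B and RPL7C lie well below RPL7A and RPL7D.

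The copies of uL30, called L7, divided into a low and a high pair. RPL7C (AT2G44120) had -2.34, -2.19, -2.40 and -2.39 at 3-5 cm, -2.30, -1.90, -1.86 and -2.11 at 5-7 cm and -2.11, -2.18, -2.10 and -2.09 at 7-9 cm. RPL7D (AT3G13580) had -0.65, -0.70, -0.88 and -1.25 at 3-5 cm, -1.24, -1.0, -0.79 and -0.56 at 5-7 cm and -0.29, -0.41, -1.0 and -0.11 at 7-9 cm. No RPL7C array reached the level of an RPL7D array, and RPL7B was also low, as given above. RPL7D fell at 3-5 and 5-7 cm (-0.87 ± 0.23 and -0.90 ± 0.23, adjusted p = 0.00462 and 0.00375) and did not pass at 7-9 cm (-0.45 ± 0.23, adjusted p = 0.125). Its calls did not hold without 3-5 cm replicate 4 (-0.69, adjusted p = 0.0511) or, at 5-7 cm, within the scanner setting of replicates 3 and 4 (-0.68, adjusted p = 0.0692).

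In pairs, RPL7A minus RPL7C averaged 1.90 ± 0.38 and RPL7A minus RPL7B 1.72 ± 0.65 (SD, n = 12). RPL7C minus RPL7D averaged -1.42 ± 0.36 and RPL7B minus RPL7D -1.25 ± 0.64. Each of these had the same sign on 12 of 12 arrays and an adjusted p of 0.00137 by the exact test. RPL7A minus RPL7D was 0.47 ± 0.48, positive on 9 of 12 arrays (adjusted p = 0.0111), and was not called when the 0-3 cm arrays were added (0.27, adjusted p = 0.135). RPL7B and RPL7C did not differ beyond their spread, at 0.17 ± 0.55 (adjusted p = 0.370), with single arrays between -0.55 and 1.56. These 6 pairs share their members and are not independent of each other.

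**Figure D4:**
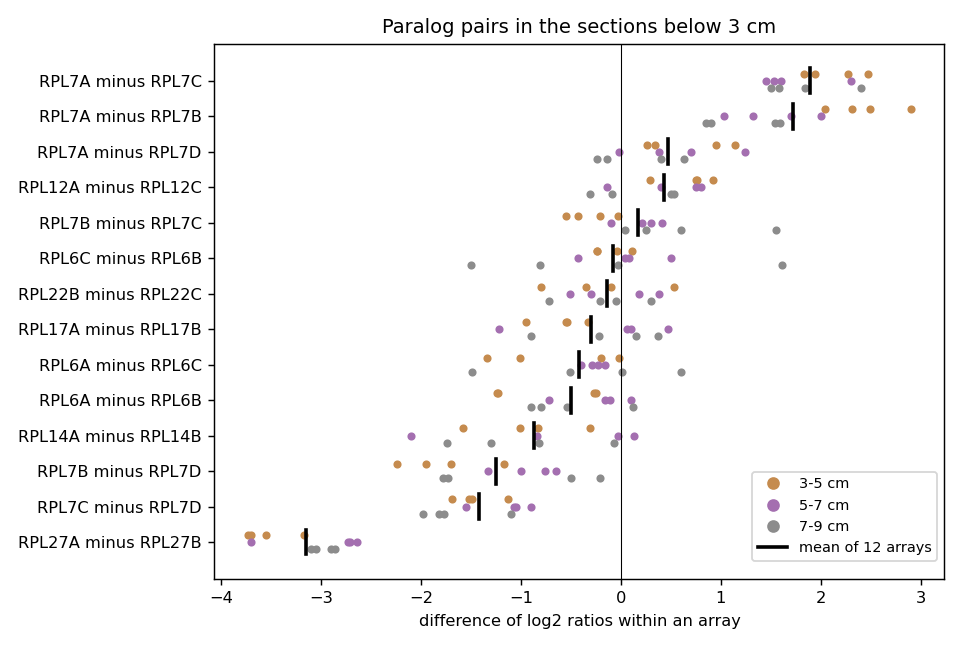
Difference of log2 ratios within an array, first copy minus second (horizontal axis), for the 14 paralog pairs (vertical axis), with a point for each of the 12 arrays coloured by section and a bar at the mean. The means run from -3.16 for RPL27A minus RPL27B to 1.90 for RPL7A minus RPL7C.

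Of the other proteins, eL14 had the next widest gap. RPL14A (AT2G20450) had -2.14, -2.28, -2.60 and -2.49 at 3-5 cm, -2.48, -2.0, -2.09 and -1.80 at 5-7 cm and -2.15, -1.76, -2.30 and -1.61 at 7-9 cm. RPL14B (AT4G27090) had -0.56, -1.27, -1.78 and -2.19 at 3-5 cm, -1.64, 0.10, -2.22 and -1.78 at 5-7 cm and -1.34, -0.02, -1.0 and -1.53 at 7-9 cm. RPL14A was uniformly low and RPL14B was scattered, with single arrays near 0. On 7-9 cm replicate 2, RPL14B, RPL18aB, RPP2B and RPL6C had nearly the same value (-0.0248, -0.0248, -0.0250 and -0.0253). The median of all probes on that array was -0.0223, and whether these 4 values are measured ratios was not tested. The difference of RPL14A minus RPL14B was -0.87 ± 0.72 (SD, n = 12), negative on 11 of 12 arrays (exact test, adjusted p = 0.00570). It was called in all 20 alternatives, among them without 7-9 cm replicate 2. The call of RPL14B against the reference at 7-9 cm (-0.97 ± 0.27) was lost in 4 alternatives, with values from -0.68 to -0.52, among them without replicate 4 (-0.64, adjusted p = 0.0818). At 5-7 cm it was lost on the arrays scanned as replicates 1 and 2 were (-0.77, adjusted p = 0.110).

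Smaller differences were seen for eL6 and uL11, and none beyond the spread for uL22 and eL22. RPL6A (AT1G18540) was below RPL6B (AT1G74060) by value, with a difference of -0.50 ± 0.48 (adjusted p = 0.00684), and below RPL6C (AT1G74050), with -0.42 ± 0.60 (adjusted p = 0.0417), each on 10 of 12 arrays by the exact test. Both calls were lost on all 20 arrays, with differences of -0.32 and -0.36 (adjusted p = 0.0778 each). At 2-4 cm only replicates 3 and 4 had values of both RPL6A (0.20 and -0.81) and RPL6B (-1.08 and -0.77). The difference there averaged 0.62 ± 0.93 (SD) and rested on replicate 3. The call of RPL6A minus RPL6C was also lost without the 3 arrays on whose dye the labels disagree (-0.31, adjusted p = 0.194). It was lost without any one of 9 single arrays as well, with values from -0.44 to -0.32 and adjusted p-values up to 0.0834. RPL6C and RPL6B, neighbours on chromosome 1 with 0 protein-coding genes between them, had a difference of -0.08 ± 0.74 (exact test, adjusted p = 0.705). RPL12A (AT2G37190) minus RPL12C was 0.43 ± 0.41, positive on 9 of 12 arrays (exact test, adjusted p = 0.0129). At 2-4 cm the mean difference was of the other sign, -0.64 ± 1.47 (SD, n = 4), and the call was lost on all 20 arrays (0.14, adjusted p = 0.569) and on the 16 arrays of 10 cm stems (0.33, adjusted p = 0.0515). RPL17A minus RPL17B was -0.30 ± 0.55 (adjusted p = 0.113) and RPL22B (AT3G05560) minus RPL22C (AT5G27770) was -0.14 ± 0.43 (adjusted p = 0.337).

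Correlations between members describe how alike they moved. Over all 20 arrays the correlation between log2 ratios had a median of 0.440 over the 14 paralog pairs, from -0.661 for the L27 copies to 0.718 for the L17 copies. The 3 pairs with RPL7A had -0.016, 0.008 and 0.081, and the remaining paralog pairs lay between 0.327 and 0.718. Over the 514 other pairs of members the median was 0.636, from -0.895 to 0.949. These values describe arrays that share a reference, and no test was made of them.

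At the top of the 10 cm stems the difference from the reference was small. In the 0-3 cm section 0 of 33 members were higher and 6 were lower (limma; 18 at an unadjusted p under 0.05), with a median of -0.55, against 2.18% of all probes higher and 1.29% lower. The 6 were RPL19B (-0.99 ± 0.22, adjusted p = 0.0138), RPL7C (-0.97 ± 0.23), RPL35aB (-0.77 ± 0.18), RPL6A (-0.72 ± 0.18), RPL10aC (-0.62 ± 0.17) and RPL32B (-0.58 ± 0.13). No member was 2-fold lower, 16 were below 0 on all 4 arrays and 0 above it (10.4% and 8.9% of probes), and 17 had arrays on both sides or at 0. The count was 2, 1, 5 and 3 without replicate 1, 2, 3 and 4, and it reached 19 when only the 0-3 cm arrays were fitted. The share of all probes called was not taken for these fits. For RPL6A, RPL7C, RPL10aC, RPL19B and RPL35aB both Cy3 arrays lay above both Cy5 arrays, while those of RPL32B overlapped. The part of the dye in these calls was not tested.

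On several arrays the values moved with the spot number of the probe. Blocks were taken as 48 equal runs of spot numbers, and no layout of the array was used. Over the 33 members the block number correlated with the log2 ratio at -0.734, -0.485, 0.592 and 0.189 on 0-3 cm replicates 1 to 4. Members in blocks 1 to 24 had medians of -0.06, -0.50, -0.70 and -0.59, and those in blocks 25 to 48 had -0.89, -0.72, -0.30 and -0.28. The same was measured over 38 genes of the small subunit, at -0.732, -0.377, 0.738 and -0.248. On 7-9 cm replicate 2 the members' value was -0.359, with -0.420 over the 40S genes and medians of -0.815 and -1.67 for members in the first and second group of blocks, a gap like that on 0-3 cm replicate 1. On 2-4 cm replicate 3 it was also -0.359, with 0.072 over the 40S genes. On the 3-5 cm arrays the values for the members lay between -0.056 and 0.173. Without 7-9 cm replicate 2, 31 members were lower and 1 higher at 7-9 cm, with a median of -1.70. With each block's median removed, 9 members were lower at 0-3 cm with a median of -0.55, and 31 were lower at 3-5 cm with a median of -1.95. The part of position in the calls of single members was not tested.

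**Figure D5:**
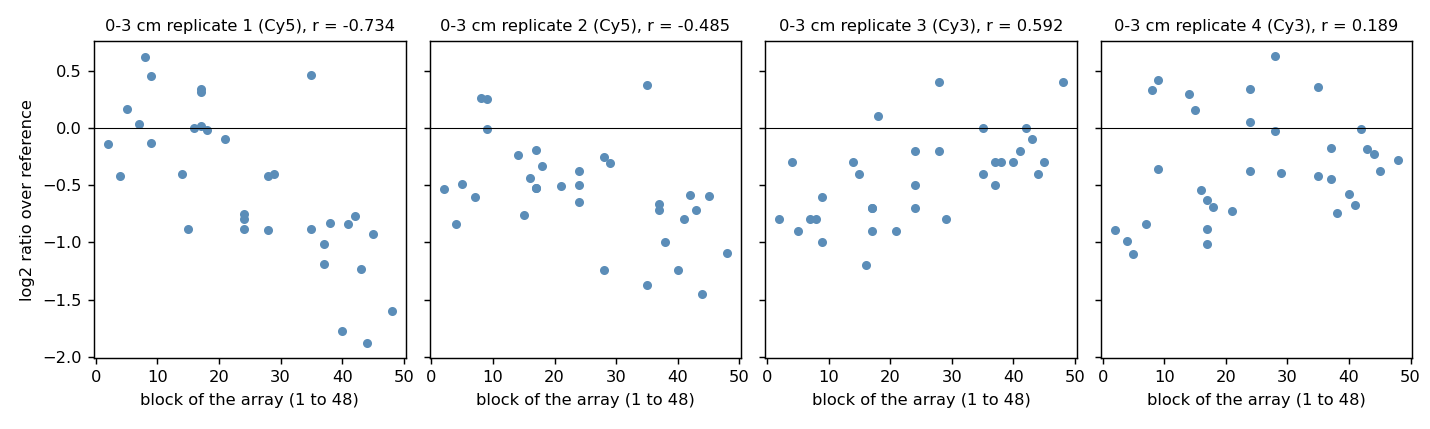
Log2 ratio over the reference (vertical axis) of the 33 members against the block of their probe (horizontal axis, 1 to 48, equal runs of spot numbers) on the 4 arrays of the 0-3 cm section. The values run down with block number on replicates 1 and 2 (r = -0.734 and -0.485) and up on replicate 3 (r = 0.592).

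In the 2-4 cm section of the 5 cm stems, 17 of 33 members were lower and 1 was higher, with a median of -0.69, against 6.89% of all probes lower and 6.63% higher. RPL35aB (-1.37 ± 0.18), RPL10aC (-1.32 ± 0.17), RPL7B (-1.17 ± 0.22) and RPL14A (-1.10 ± 0.21) were the 4 members at least 2-fold lower. On all 4 arrays 13 members were below 0 and 1 was above it, against 16.9% and 17.2% of probes. The array medians of the members were -0.72, -0.73, -1.01 and -0.04, and 17 of 33 members were below 0 on replicate 4. Without that array 20 members were lower and 1 higher, with a median of -0.81. Without replicate 3 instead, 11 were lower and 1 higher, with a median of -0.56. RPL6A and RPL6B each lacked 1 array in this section and were fitted on 3.

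At 2-4 cm the arrays of both dyes did not overlap for 13 of the 31 members with all 4 arrays. Both Cy3 arrays lay above both Cy5 arrays for 6 of them, or 19.4% (RPL7D, RPL12C, RPL13D, RPL22B, RPL34C and RPP2B), against 21.3% of all probes. Both Cy5 arrays lay above both Cy3 arrays for 7, or 22.6% (RPL7B, RPL10aC, RPL12A, RPL14B, RPL17A, RPL27A and RPL35aB), against 28.4%. Neither share was above that of all probes. Values are given for 3 of the first kind, chosen after they were seen. RPL34C (AT3G28900), a copy of eL34, had -0.36 and -0.66 with the section in Cy5, and 2.92 and 2.06 with it in Cy3. RPP2B had -0.29 and 0.04 in Cy5, and 0.90 and 1.99 in Cy3. RPL12C had -0.29 and -2.10 in Cy5, and 0.80 and 0.66 in Cy3. None of these 3 passed at 2-4 cm (0.99 ± 0.39, 0.66 ± 0.31 and -0.23 ± 0.31, adjusted p = 0.104, 0.183 and 0.713). In each of the other sections a share of members was further from that of all probes than at 2-4 cm. At 0-3 cm Cy3 lay above Cy5 for 48.5% of the 33 members and Cy5 above Cy3 for 30.3%, against 28.5% and 28.9% of probes. At 3-5 cm these shares were 18.2% and 33.3%, against 22.3% and 25%. They were 12.1% and 24.2% at 5-7 cm, against 21.8% and 21.4%. At 7-9 cm the shares were 9.09% and 42.4%, against 23.5% and 22.6%. Both 7-9 cm arrays taken as Cy5, replicates 2 and 4, are among those on whose dye the labels disagree. By the other label no 7-9 cm array had the section in Cy5. At 5-7 cm the labels disagree on replicate 4, also taken as Cy5. The part of the dye in these values was not tested.

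Photomultiplier settings of the scanner, given as Cy3 and Cy5, were mixed within the 5-7 and 7-9 cm sections. At 5-7 cm the median of the members was -1.79 on the replicates scanned at 62 and 60 and -1.85 on those at 63 and 60, with 30 and 29 members lower. At 7-9 cm it was -1.59 and -1.63, with 29 and 29 members lower. RPL27B was the 1 higher member in each of these 4 fits, for which no share of all probes was taken.

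Genes that work with the 60S subunit were read from lists of loci, few of which had a probe. Of 98 listed genes for 40S proteins and RACK1, 38 were tested, and 33 were lower and 0 higher at 3-5 cm (median -1.65). At 7-9 cm 30 were lower and 1 higher (median -1.20). From 3-5 to 5-7 cm 5 of the 38 were higher and 1 was lower, against 2.43% and 3.47% of all probes. The lowest were AT3G04840 (-2.49 ± 0.24) and AT3G56340 (-2.35 ± 0.30) at 3-5 cm. AT4G34670 was the 1 called above the reference, by 1.20 ± 0.31 at 5-7 cm and 0.86 ± 0.31 at 7-9 cm. Of 25 genes for ribosome biogenesis factors 5 were tested, and 4 were lower at 3-5 cm (median -1.87), the lowest AT1G52930 (-2.35 ± 0.14) and AT5G27120 (-1.97 ± 0.16). From 3-5 to 5-7 cm 3 of these 5 were higher at 5-7 cm.

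Of 25 genes for proteins of the plastid 50S subunit 3 were tested, and all 3 were lower at 3-5 cm (median -1.69), the lowest AT1G29070 (-2.15 ± 0.22) and AT2G43030 (-1.69 ± 0.15). Of 23 genes for initiation and elongation factors 8 were tested, and 6 were lower at 3-5 cm (median -0.93), the lowest AT5G19510 (-1.67 ± 0.17) and AT1G57720 (-1.14 ± 0.18). RAPTOR1 (AT3G08850), a part of the TOR kinase complex that controls growth, was the 1 tested of 6 genes around TOR and TCP20, and did not pass (0.28 ± 0.16 at 3-5 cm, adjusted p = 0.163).

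Markers of other tissues could be read only in part. Of 18 genes of dividing cells 3 were tested and all 3 were lower at 3-5 cm, TOPII, a topoisomerase (-2.08 ± 0.30), AUR2, an Aurora kinase (-1.86 ± 0.18), and PRL, a subunit of the replicative helicase (-1.60 ± 0.29). At 0-3 cm 1 of the 3 was lower, at 5-7 cm 2 and at 7-9 cm all 3. From 3-5 to 5-7 cm they changed by -0.04 to 1.39 and none passed, against -0.25 to 0.83 for the 60S members. All 3 were low with the 60S genes at 3-5 cm, but 1 rose further than any member at 5-7 cm by value. Their part in the result was not tested. Of 8 genes of the shoot apex and young flowers and 8 of secondary walls and xylem, 0 had a usable probe, so the labelled stem tissue could not be checked with them.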

How the data were processed

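The members and gene lists were chosen with earlier results of these data known, and values array by array are given for the 5 lowest members at 3-5 cm, members called higher, both members of the 6 widest called pairs and members called in no section below 3 cm, with RPL34C and RPP2B added after their values were seen. Deposited log2 ratios, taken as section over reference from the titles, were used as the authors left them. Arrays were scanned with a ScanArray Express, per the labels. The sources used here do not give the log base, taken as 2, the background correction or the normalization, and spot intensities were not used, so the number of arrays limits the precision.

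Probes measured on at least 3 of 4 arrays in every section were kept, 25720 of 28800 spots. A model with 5 section means and a dye term was fitted to all 20 arrays (limma 3.58.1 in R 4.3.3, eBayes, 14 residual degrees of freedom), with Benjamini-Hochberg adjustment over all probes and a threshold of 0.05. Sections and paralog differences were tested against 0, which leaves out the reference's own spread. Where labels disagree on the dye, the source name was used. Paralog differences had an exact sign-flip test over 12 arrays (4096 sign assignments) in Python 3.11.15 with numpy 2.4.6. Both tests were tested on simulated data. Alternatives covered scaling, array weights, dye, samples, filter, scanner settings, replicates and, chosen after seeing the data, spot blocks. Replicate numbers were not taken as pairs of arrays.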

Additional observations from a re-analysis of the deposited data

Results flagged for a closer look

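The arrays of each section were examined for each of the 33 members with all 4 arrays and for the median of the members. In 7 of these 168 sets of 4 arrays, 1 array stood apart from the other 3 by more than Dixon's critical value, which about 1 in 20 sets passes by chance. RPL22B at 2-4 cm had 1.01 on replicate 4, against -1.20 to -0.94 on the others. RPL27A at 2-4 cm had 0.049 on replicate 2, against -0.71 to -0.59 on the others. RPL13aA at 3-5 cm had -2.57 on replicate 3, against -2.26 to -2.20 on the others. RPL17B at 5-7 cm had -1.24 on replicate 1, against -2.30 to -2.19 on the others. RPL30A at 5-7 cm had -2.32 on replicate 3, against -1.64 to -1.55 on the others. RPL10aC at 7-9 cm had -2.31 on replicate 2, against -1.85 to -1.80 on the others. RPL27A at 7-9 cm had -0.43 on replicate 4, against -1.08 to -1.0 on the others.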

How the results depend on the processing

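Members called below 3 cm and their medians kept their direction under every alternative run, and 31 of 32 calls at 3-5 cm, 29 of 32 at 5-7 cm and 28 of 31 at 7-9 cm were kept in all of them. Fewer were kept at 2-4 cm (7 of 18), at 3-5 against 0-3 cm (11 of 30), among paralog pairs (6 of 10) and at 0-3 cm (0 of 6). No member passed at 5-7 against 3-5 cm or at 7-9 against 5-7 cm in any of them. With centring and scaling, 16 members passed at 0-3 cm (median -0.84) and 11 at 3-5 against 0-3 cm (median -0.97), and the medians were -1.71 at 3-5, -1.53 at 5-7 and -1.29 at 7-9 cm. At 0-3 cm 3 passed without the dye term, 3 within setting 62 and 60, 3 without the arrays deposited in steps of 0.1, and 19 with only the compared arrays. With array weights the median of 3-5 against 0-3 cm was -1.51. On all 20 arrays 6 paralog pairs passed, and on the 16 arrays of 10 cm stems 8. Shares of all probes called were taken in the main fit alone, and the causes were not tested.

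Leaving out single arrays gave 1 to 5 members called at 0-3 cm (medians -0.55 to -0.50), 12 to 21 at 2-4 cm (-0.81 to -0.56), 25 to 29 at 3-5 against 0-3 cm (-1.50 to -1.32) and 9 to 10 pairs. With a replicate block, 5 members were called at 0-3 cm, 18 at 2-4 cm and 30 at 3-5 against 0-3 cm. Residuals of same-numbered arrays correlated at a median of -0.067, from -0.222 to 0.247, over 40 pairs and 9 were over 0.1, so the numbers were not taken as pairs. Averaging several probes of a locus was not run, as no member has more than 1, and median centring cannot change differences within arrays.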
